A study of Mus musculus with 32 samples.

Results

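The core circadian clock was examined through 10 genes, Arntl, Clock, Per1, Per2, Per3, Cry1, Cry2, Nr1d1, Nr1d2, and Dbp, out of 22850 genes with normalized expression scores in sorted mouse islet cells. The genes were chosen by symbol from textbook knowledge of the clock, and each of the 10 was found once, as a protein-coding gene. RNA was sequenced from 32 samples: pancreatic β cells, macrophages (MΦs), and endothelial cells (ECs), sorted from dispersed islets by green fluorescent protein (β cells), CD11b (MΦs), and CD31 (ECs). All groups, No Dox included, came from C57BL/6 mice that carried RIP-rtTA together with TetO-VEGF-A and MIP-GFP, so that doxycycline (Dox) turns on human VEGF-A in β cells through rtTA. Insulin gene promoters, rat Ins2 for rtTA and mouse Ins1 for the fluorescent protein, restrict these transgenes to β cells. Mice were 8 to 16 weeks old at the start and were kept on a 12 h light and 12 h dark schedule. The hour of the day at which islets were collected is not given in the sources used here, so time of day and time point cannot be told apart. β cells had n = 4 samples without Dox (No Dox), n = 5 after 1 week of Dox (1wk Dox), and n = 3 after a further week of withdrawal (1wk WD). ECs had n = 4, 1, and 5 samples, and MΦs n = 4, 2, and 4.

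The clock is a transcriptional feedback loop. Arntl (also called Bmal1) and Clock encode the partners of an activator that binds E-boxes in DNA, and among its targets are the Per and Cry genes, whose proteins return to the nucleus and repress it. A second loop runs through Nr1d1 and Nr1d2, nuclear receptors (Rev-erbα and Rev-erbβ) that repress Arntl, and Dbp is an output transcription factor that binds D-boxes. In tissues of mice under a light cycle, Arntl RNA peaks at about the opposite phase from Dbp, Nr1d1, and Per RNA, and an intact clock in β cells is known to be needed for normal insulin secretion.

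The binding motifs of this loop were looked for in the promoters of the genes, since the loop acts through them. RefSeq promoter windows on GRCm38.p6 were matched for 9 of the 10 genes, with 13 windows in all, and Per2 had no entry. In the 250 bases before the start, both strands were searched for the E-box CACGTG, for the D-boxes TTATGTAA and TTACGTAA, and for AGGTCA, the core of the element bound by Nr1d1 and Nr1d2. Of 32851 promoters of all genes, 6.02% held the E-box, 0.931% a D-box, and 14% the AGGTCA core in the same stretch. Among the clock genes, Per1 and Cry1 held an E-box, Per3 held a D-box at 2 places, and Clock, Per1, and Nr1d2 held the AGGTCA core. Counted by window, as the shares of all genes are, the E-box was in 2, a D-box in 1, and the core in 3 of the 13 windows. The stretches with the matches are shown for Per1, Per3, Cry1, and Nr1d2, with 20 bases on each side, and the whole 250 bases are shown for Dbp because it was the gene that differed between time points. Capitals mark the motif, read 5′ to 3′ on the strand of the gene, and the AGGTCA core of Per1 lies on the opposite strand.
Per1, chr11:69098763-69098837, plus strand: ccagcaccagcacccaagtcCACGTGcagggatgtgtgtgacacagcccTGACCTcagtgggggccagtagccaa
Per3, chr4:151044796-151044890, minus strand: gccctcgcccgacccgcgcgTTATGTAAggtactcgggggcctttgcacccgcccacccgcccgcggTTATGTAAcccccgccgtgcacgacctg
Cry1, chr10:85185089-85185134, minus strand: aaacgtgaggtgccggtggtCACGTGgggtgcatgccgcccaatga
Nr1d2, chr14:18239158-18239203, minus strand: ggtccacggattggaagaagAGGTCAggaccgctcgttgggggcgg
Dbp, chr7:45704997-45705246, plus strand: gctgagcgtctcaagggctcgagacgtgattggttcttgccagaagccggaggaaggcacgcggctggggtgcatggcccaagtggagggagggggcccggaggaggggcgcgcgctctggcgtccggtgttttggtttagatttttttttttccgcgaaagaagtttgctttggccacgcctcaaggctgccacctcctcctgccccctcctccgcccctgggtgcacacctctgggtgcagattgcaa
The Dbp stretch held none of these letters, which describes this window only.

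The scores are rounded values normalized by the authors, and log2(score + 1) was compared. With limma, a gene was called different where its fold change reached 2 and its Benjamini-Hochberg adjusted p, over all genes tested, was under 0.05. The lowest score of a clock gene in any library was 64, against a filter at a mean of 20, and all 10 were tested in every comparison. The sum of scores per library ran from 23465985 to 53441769, and the read depth behind the scores is unknown. Each population held its own markers, with a mean log2(score + 1) over β cell markers of 13.15 to 16.57 in β cells and at most 9.57 in the other cells, over EC markers of 15.37 to 15.9 in ECs and at most 12.55 in β cells, and over MΦ markers of 14.12 to 14.98 in MΦs. Some libraries stood apart. Stromal markers averaged 4.56 and 3.39 in No Dox β cell replicates 1 and 2 and 10.2 to 14.3 in the other β cell libraries, and acinar enzyme transcripts were high in No Dox libraries of every cell type, up to 20.1 in β cells (replicate 3), 19.71 in MΦs (replicate 2), and 17.01 in ECs (replicate 2). Each sample pooled islets of several mice, and in these bulk samples fewer cells of a type and less RNA per cell cannot be told apart.

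**Figure D1:**
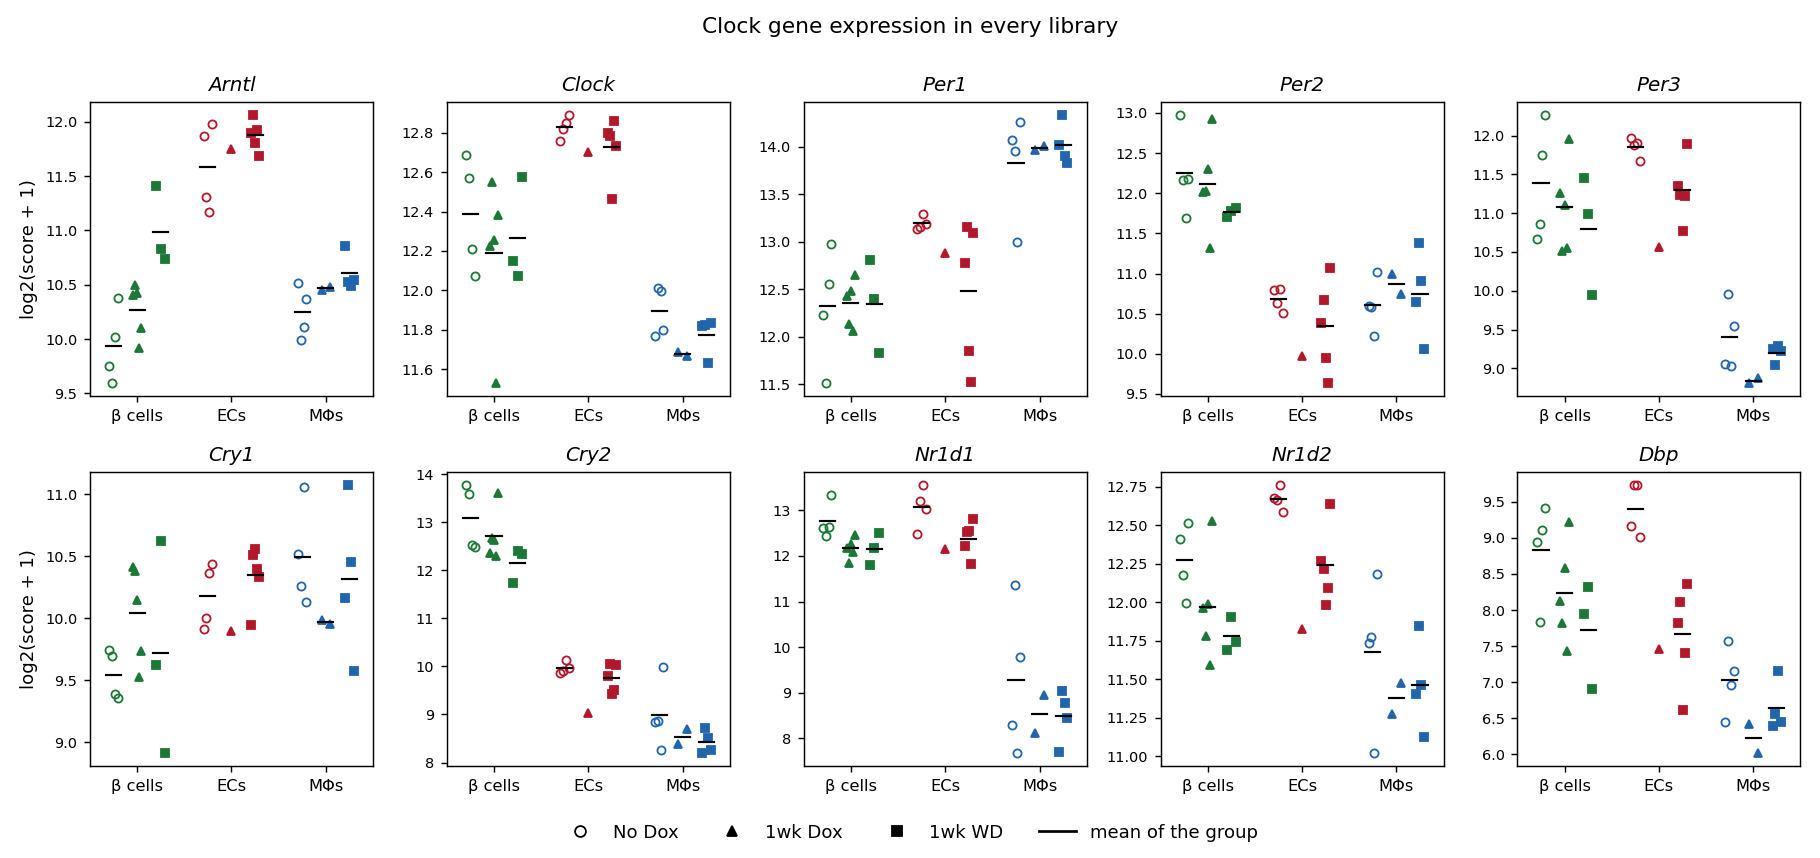
Expression of the 10 clock genes in every library, as log2(score + 1) on a separate axis for each gene. Open circles are No Dox, triangles 1wk Dox, squares 1wk WD, and bars the mean of groups with more than 1 sample. Cry2 lay highest in β cells, Arntl in ECs, and Per1 in MΦs, while Dbp of the 1wk WD ECs (97 to 327) lay below Dbp of the No Dox ECs (514 to 849).

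The withdrawal time point, when VEGF-A is no longer induced, was compared with baseline first. In ECs, Dbp (ENSMUSG00000059824, chr7:52960458-52965525 on mm9, plus strand) was the clock gene that fell. Dbp scores were 571, 847, 849, and 514 at No Dox and 225, 275, 97, 169, and 327 at 1wk WD. The highest 1wk WD sample was below the lowest No Dox sample. Dbp was 3.35-fold lower at 1wk WD (log2 -1.74, SE 0.32, limma adjusted p = 0.0141), and 1 of 10 clock genes was called lower and 0 higher, against 1.76% of 14167 genes called. Dbp was also the single clock gene whose EC groups did not overlap, which held for 10.7% of all genes. The call was lost in 3 of 20 alternatives: without No Dox replicate 3 (log2 -1.64, limma adjusted p = 0.0574), with no trend of the spread (0.0558), and with no filter on low scores (0.123).

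Several targets of the Arntl and Clock activator had lower mean scores in the same ECs without passing the threshold. Nr1d2 scores were 6550, 6481, 6942, and 6145 at No Dox and 4933, 4759, 4040, 4372, and 6373 at 1wk WD. All but the 1wk WD replicate 5 lay below the No Dox range, and the log2 difference was -0.43 (SE 0.12, limma adjusted p = 0.0745). Nr1d1 scores were 5679, 9376, 11993, and 8392 at No Dox and 4726, 5875, 5961, 3647, and 7122 at 1wk WD. The groups overlapped through No Dox replicate 1, and the log2 difference was -0.68 (SE 0.22, limma adjusted p = 0.104). Per3, a paralog of the Per repressors, scored 4004, 3778, 3817, and 3255 at No Dox and 2620, 2417, 1752, 2378, and 3790 at 1wk WD. Again 1wk WD replicate 5 was the sample inside the No Dox range, with a log2 difference of -0.56 (SE 0.18, limma adjusted p = 0.101). Per1, another of the Per repressors, scored 8995, 9087, 10053, and 9345 at No Dox and 7025, 9139, 3684, 2947, and 8695 at 1wk WD. Replicates 3 and 4 at 1wk WD were far below the other libraries, and the log2 difference was -0.71 (SE 0.29, limma adjusted p = 0.184).

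The activator genes themselves differed little in ECs. Arntl scored 3753, 2540, 2310, and 4042 at No Dox and 3826, 4266, 3584, 3880, and 3289 at 1wk WD, and the groups overlapped (log2 0.29, SE 0.16, limma adjusted p = 0.312). Clock had a log2 difference of -0.1 (SE 0.1, limma adjusted p = 0.568). Per2, Cry1, and Cry2 had log2 differences of -0.34, 0.17, and -0.2, none of them called. Of the 10 clock genes, 8 had a negative and 2 a positive difference, with a median of -0.39 beside a median of 0 over all genes, and 5 had an unadjusted p under 0.05, where 21.9% of all genes did.

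Other transcripts moved with the same contrast in ECs. All 6 acinar enzyme markers were called lower at 1wk WD, with a mean log2 of 12.12 to 17.01 at No Dox and 5.35 to 12.35 at 1wk WD. Of 8 stromal markers, 7 were tested and 3 called higher, with a mean of 5.1 to 6 at No Dox and 6.2 to 7.92 at 1wk WD. Of 6 markers of other islet endocrine cells, 4 were tested and 1, Ppy, was called lower, with a median log2 difference of -1.64. Without No Dox replicate 2, the sample of the highest acinar mean, the Dbp log2 change was -1.64 with a limma adjusted p of 0.0472. The part of these cells in the Dbp change and in the other EC differences was not tested. Dbp shares 491 exon bases with Sphk2 on the opposite strand, or 16.7% of its exon bases, and reads of the pair cannot be told apart without strand. Sphk2, a sphingosine kinase, had a log2 difference of -0.4 (SE 0.2, limma adjusted p = 0.268) in the same comparison.

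The single EC sample at 1wk Dox has no spread of its own and was set beside the No Dox samples without a test. Dbp scored 175 in it, below every No Dox sample and 3.86-fold below their mean on the log2 scale, and Per3 scored 1510, or 2.45-fold below. These 2 of 10 genes passed a fold of 2, beside 10.7% of 14047 genes. The sample lay outside the No Dox range for 9 of the 10 genes, all of them below it, and for 62.1% of all genes. Arntl, at 3449, was the clock gene inside the range. Acinar markers averaged 3.16 in this sample, against 12.12 to 17.01 at No Dox, and their part in these differences was not tested.

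**Figure D2:**
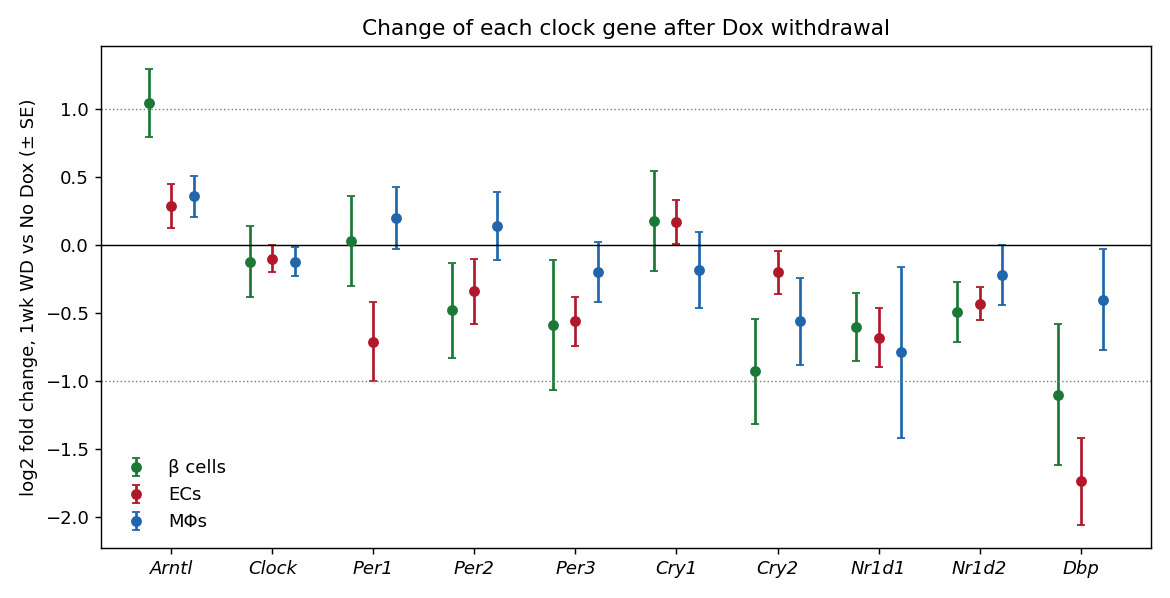
Log2 fold change of each clock gene between 1wk WD and No Dox, with bars of 1 SE, in β cells, ECs, and MΦs, and dotted lines at a fold change of 2. Dbp in ECs (-1.74) was the only change that passed the threshold; Arntl was positive and Nr1d1, Nr1d2, Per3, Cry2, Clock, and Dbp were negative in each cell type.

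In β cells, Arntl (ENSMUSG00000055116, chr7:120350979-120457636 on mm9, plus strand) had the smallest unadjusted p of the clock genes at 1wk WD. Its scores were 859, 773, 1036, and 1328 at No Dox. After 1 week of Dox they were 1352, 1447, 1370, 966, and 1100, and after withdrawal 2710, 1813, and 1705. Every 1wk WD sample was above every No Dox and every 1wk Dox sample. The log2 difference of 1wk WD from No Dox was 1.05 (SE 0.25, limma unadjusted p = 0.00115, adjusted p = 0.462), and from 1wk Dox it was 0.72 (SE 0.24, limma adjusted p = 0.66). With limma, 0 clock genes were called between 1wk WD and No Dox in β cells, where 0% of 16346 genes were called, and 4 clock genes and 1336 of all genes had an unadjusted p under 0.05. The groups did not overlap for Arntl, Cry2, and Nr1d2, or 3 of 10 clock genes, against 6.44% of all genes. Markers of other cells moved with this contrast, although none was called. EC markers averaged 7.47 to 8.96 in No Dox β cells and 8.28 to 10.86 after withdrawal, and all 8 had a positive difference. MΦ markers averaged 4.76 to 7.97 and 7.39 to 9.01, with 7 of 8 positive, and all 8 stromal markers were positive, with a median log2 difference of 4.17. Acinar markers averaged 11.6 to 20.1 and 4.5 to 15.54, with 6 of 6 negative. The part of ECs, MΦs, and acinar cells in the Arntl difference was not tested, and a fit with the stromal mean as a covariate is given below.

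Cry2, a repressor of the activator, scored 13948, 12278, 5867, and 5687 in No Dox β cells. Its 1wk Dox scores were 5277, 6472, 6330, 5043, and 12413, and its 1wk WD scores 3407, 5394, and 5141. No Dox replicates 1 and 2 and 1wk Dox replicate 5 were well above the other libraries, and the log2 difference of 1wk WD from No Dox was -0.93 (SE 0.39, limma adjusted p = 0.601). The 2 No Dox libraries of high Cry2 were those of low stromal markers. Without the other 2 No Dox libraries, Arntl (log2 1.32, limma adjusted p = 0.0137) and Cry2 (log2 -1.52, limma adjusted p = 0.0265) were called, as were 1424 of all genes in that fit. The 2 libraries kept there had the highest Cry2 and the lowest Arntl of the No Dox group, so both differences were bound to grow. Without the 2 of low stromal markers the log2 differences were 0.79 for Arntl and -0.34 for Cry2 and neither was called. These splits and the covariate fit that follows were not planned and came after seeing the data. With the stromal mean as a covariate the log2 difference was -0.41 (limma adjusted p = 0.672) for Cry2 and 0.8 (limma adjusted p = 0.231) for Arntl.

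Dbp in β cells scored 490, 228, 553, and 683 at No Dox and 246, 320, and 119 at 1wk WD, and No Dox replicate 2 lay among the 1wk WD samples (log2 -1.1, SE 0.52, limma adjusted p = 0.61). Nr1d1 scored 6271, 5556, 6318, and 10377 at No Dox, 4606, 3704, 4938, 4375, and 5634 after Dox, and 3558, 4627, and 5812 after withdrawal. No Dox samples were mostly above the others, and the log2 differences were -0.59 (SE 0.22, limma adjusted p = 0.64) for 1wk Dox and -0.6 (SE 0.25, limma adjusted p = 0.601) for 1wk WD. Thra, a thyroid hormone receptor gene that shares 263 exon bases with Nr1d1 on the opposite strand, had a log2 difference of 0.8 (SE 0.53, limma adjusted p = 0.658) at 1wk WD. Nr1d2 differed by -0.49 (SE 0.22), Per3 by -0.59 (SE 0.48), Per2 by -0.48 (SE 0.35), and Per1 by 0.03 (SE 0.33). At 1wk Dox against No Dox, 0 of 10 clock genes were called against 0.0122% of all genes, and 1 clock gene and 1142 of all genes had an unadjusted p under 0.05. In that contrast all 8 EC markers (median log2 2.19) and all 8 stromal markers (4.16) were positive. All 6 acinar markers were negative (median -9.02), each with an unadjusted limma p under 0.05. None of these markers was called, and the part of ECs and acinar cells in the 1wk Dox differences was not tested. Between 1wk WD and 1wk Dox, 0 were called against 0%, with 1 clock gene and 1032 of all genes under an unadjusted p of 0.05.

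MΦs had the lowest mean scores of Dbp and Nr1d1, and no clock gene was called between their time points. Arntl scored 1461, 1019, 1108, and 1325 at No Dox, 1398 and 1431 after Dox, and 1855, 1471, 1436, and 1494 after withdrawal. The lowest 1wk WD sample lay below the highest No Dox sample, and the log2 difference was 0.36 (SE 0.15, limma adjusted p = 0.256). Dbp scored 86, 190, 124, and 141 at No Dox, 85 and 64 after Dox, and 83, 93, 141, and 86 after withdrawal. Both 1wk Dox samples were below the No Dox samples by a small margin, with log2 differences of -0.81 (SE 0.45, limma adjusted p = 0.335) at 1wk Dox and -0.4 (SE 0.37, limma adjusted p = 0.606) at 1wk WD. The 1wk Dox samples also lay below the No Dox samples for Clock, Per3, and Cry1, and the share of all genes without overlap was not computed here. Nr1d1 scored 313, 2636, 205, and 884 at No Dox, and its highest sample, replicate 2, was the MΦ library of high β cell and acinar markers. Per1 ran from 8195 to 19612 at No Dox, with a median of 16563, and from 14579 to 20545 at 1wk WD. The share of all genes called was 2.26% for 1wk Dox, 0.626% for 1wk WD against No Dox, and 0.0866% for 1wk WD against 1wk Dox, and 0, 1, and 0 clock genes and 3200, 2595, and 1456 of all genes had an unadjusted p under 0.05. Markers of other cells moved with these contrasts. Acinar markers averaged 11.33 to 19.71 in No Dox MΦs, 5.77 to 7.95 after Dox, and 6.59 to 14.05 after withdrawal, with 6 of 6 negative at both later time points, 4 of them called lower at 1wk Dox and 0 at 1wk WD. EC markers averaged 5.88 to 7.03 at No Dox and 7.9 to 8.27 after Dox, where 7 of 8 were positive with a median log2 difference of 1.37 and none was called. All 8 stromal markers were positive at 1wk WD, with a median of 1.05 and none called. The part of these cells in the MΦ differences was not tested.

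The response to withdrawal was then compared between cell types in 1 model. No clock gene was called by limma in any of the 3 differences of response, where 0.368% of 16833 genes were called for ECs against β cells, 0.0475% for MΦs against β cells, and 0.0356% for MΦs against ECs, and 1 of 10 clock genes in each had an unadjusted p under 0.05, where 15%, 11.8%, and 11.5% of all genes did. The Dbp response of MΦs was higher than that of ECs by 1.35 on the log2 scale (SE 0.56, limma adjusted p = 0.352). The Arntl response of ECs minus that of β cells was -0.76 (SE 0.29, limma adjusted p = 0.223). A fall of Dbp that was particular to ECs was therefore not shown.

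**Figure D3:**
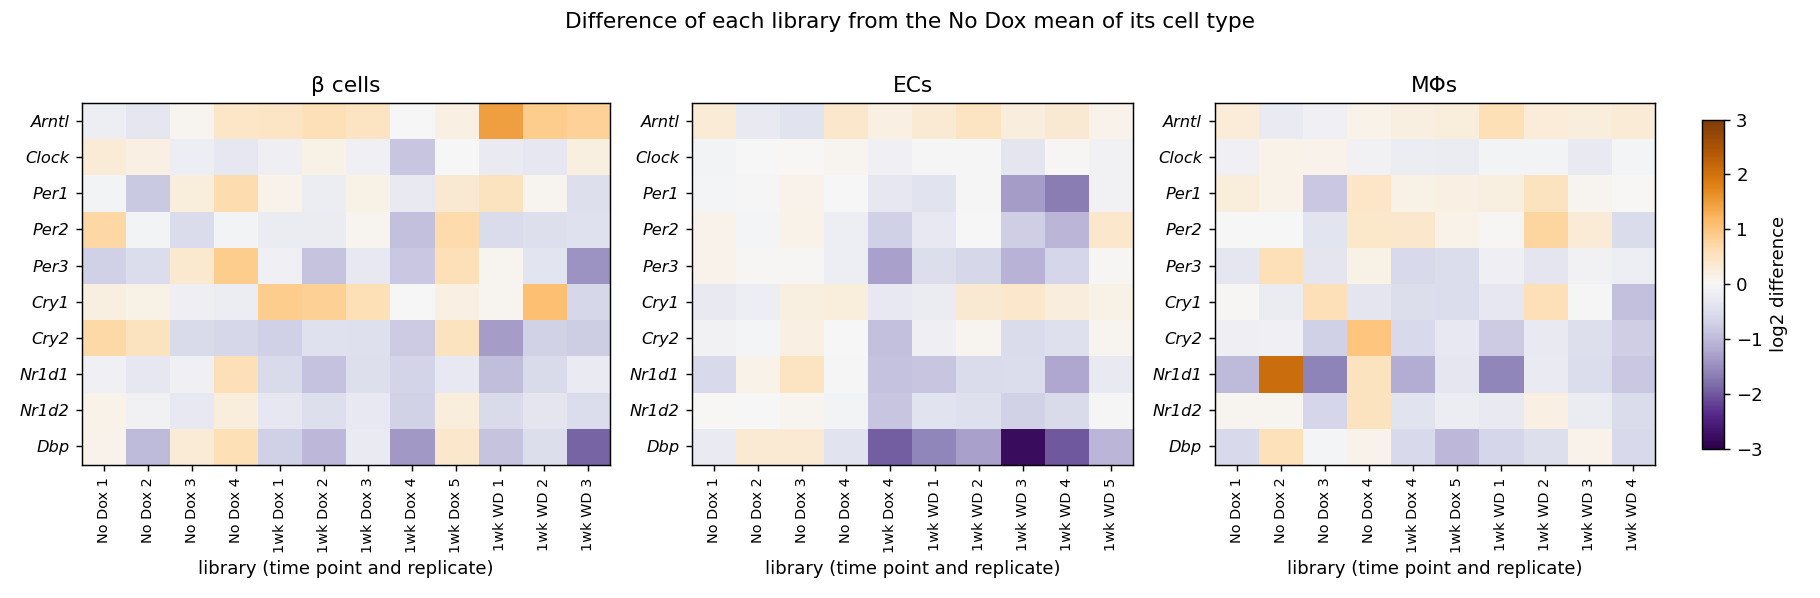
Log2 difference of each library from the No Dox mean of its cell type, with a row for each clock gene and a column for each library, from purple (lower) to orange (higher). The Dbp row of ECs is purple in the 1wk Dox and all 5 1wk WD libraries, the Arntl row of β cells is orange in the 3 1wk WD libraries, and Nr1d1 is orange in No Dox MΦ replicate 2.

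Cell types were compared next, at No Dox and at 1wk WD. Among No Dox cells, Cry2 was highest in β cells, where it ran from 5687 to 13948, against 936 to 1122 in ECs and 306 to 1017 in MΦs. The β cell range lay above both others, which overlapped. Cry2 was 8.69-fold higher in β cells than in ECs (log2 3.12, SE 0.37, limma adjusted p = 3.46e-05) and 17.1-fold higher than in MΦs (log2 4.1, SE 0.37, limma adjusted p = 4.06e-06). Per2 was also highest in β cells, from 3306 to 8013, and was 2.96-fold and 3.13-fold higher than in ECs and MΦs (limma adjusted p = 0.000261 and 0.000154). ECs and MΦs did not differ beyond their spread in Per2 (log2 0.08, SE 0.25). Per1 was instead lowest in β cells, at 2922 to 8042, and was 2.84-fold lower there than in MΦs (limma adjusted p = 0.00164).

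Arntl was highest in ECs. Its No Dox scores were 2310 to 4042 in ECs, 773 to 1328 in β cells, and 1019 to 1461 in MΦs, and the EC range lay above the others. Arntl was 3.14-fold lower in β cells than in ECs (log2 -1.65, SE 0.23, limma adjusted p = 0.000105) and 2.52-fold higher in ECs than in MΦs (limma adjusted p = 0.000485). β cells and MΦs did not differ beyond their spread in Arntl (log2 -0.31, SE 0.23, limma adjusted p = 0.264). Clock followed the order ECs, β cells, and MΦs, with log2 differences of -0.44 (SE 0.14) between β cells and ECs and 0.49 (SE 0.14) between β cells and MΦs, under the fold change of 2.

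Nr1d1, Per3, and Dbp were lowest in MΦs. Nr1d1 ran from 5556 to 10377 in β cells, from 5679 to 11993 in ECs, and from 205 to 2636 in MΦs. The MΦ range lay below both others, and its highest score was that of replicate 2, the MΦ library of high β cell and acinar markers. Nr1d1 was 11.1-fold higher in β cells (log2 3.47, SE 0.64) and 13.7-fold higher in ECs (log2 3.78, SE 0.64) than in MΦs (limma adjusted p = 0.000666 and 0.000423). Per3 was 3.95-fold and 5.48-fold higher and Dbp 3.47-fold and 5.18-fold higher in β cells and ECs than in MΦs. β cells and ECs did not differ beyond their spread in Nr1d1 (log2 -0.31, SE 0.64), Per3 (log2 -0.47, SE 0.33), or Dbp (log2 -0.58, SE 0.37). Nr1d2 and Cry1 were not called in any of these comparisons. Nr1d2 in ECs against MΦs (log2 0.99, limma adjusted p = 0.00228) and Cry1 in β cells against MΦs (log2 -0.95, limma adjusted p = 0.00297) fell just short of the fold change of 2. Both were called with quantile normalization and with some single libraries left out. In all, 3 of 10 clock genes were called between β cells and ECs, 6 between β cells and MΦs, and 4 between ECs and MΦs, against 37.7%, 43.2%, and 33.5% of 16380 genes. All 8 stromal and all 6 acinar markers were higher in β cells than in ECs and in MΦs, with none called. Of 8 MΦ markers, 3 were called higher and 1 lower in β cells than in ECs. Of 8 EC markers, 5 were called higher and 1 lower in β cells than in MΦs. The part of acinar cells, MΦs, and ECs in these differences was not tested.

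After withdrawal, Cry2 was 5.24-fold higher in β cells than in ECs (limma adjusted p = 1.35e-06) and 13.3-fold higher than in MΦs (limma adjusted p = 3.88e-08). Per2 was 2.68-fold and 2.03-fold higher (limma adjusted p = 0.00219 and 0.0188). The Per2 call against MΦs was lost in 5 of 17 alternatives, with log2 differences down to 0.79, and the call against ECs was lost with array weights (adjusted p = 0.127). Nr1d1 was 12.7-fold higher in β cells and 14.8-fold higher in ECs than in MΦs, and Per3 3.02-fold and 4.27-fold higher. Arntl was 2.41-fold higher in ECs than in MΦs, and its difference between β cells and ECs was -0.89 (SE 0.17, limma adjusted p = 0.000639), under the fold change of 2. Per1 was 2.91-fold lower in ECs and 3.19-fold lower in β cells than in MΦs. Dbp was 2.04-fold higher in ECs than in MΦs (log2 1.03, SE 0.41, limma adjusted p = 0.0499), and this call was lost in 13 of 19 alternatives. The clock genes called numbered 2 of 10 between β cells and ECs, 5 between β cells and MΦs, and 6 between ECs and MΦs, against 39.9%, 46.2%, and 40.3% of 16435 genes. Markers of other cells differed in the same contrasts. All 8 stromal markers were called higher in β cells than in ECs (median log2 6.21) and than in MΦs (4.29). Of 8 MΦ markers, 7 were called higher in β cells than in ECs. Of 8 EC markers, 5 were called higher in β cells than in MΦs. The part of these cells in the clock gene differences was not tested.

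**Figure D4:**
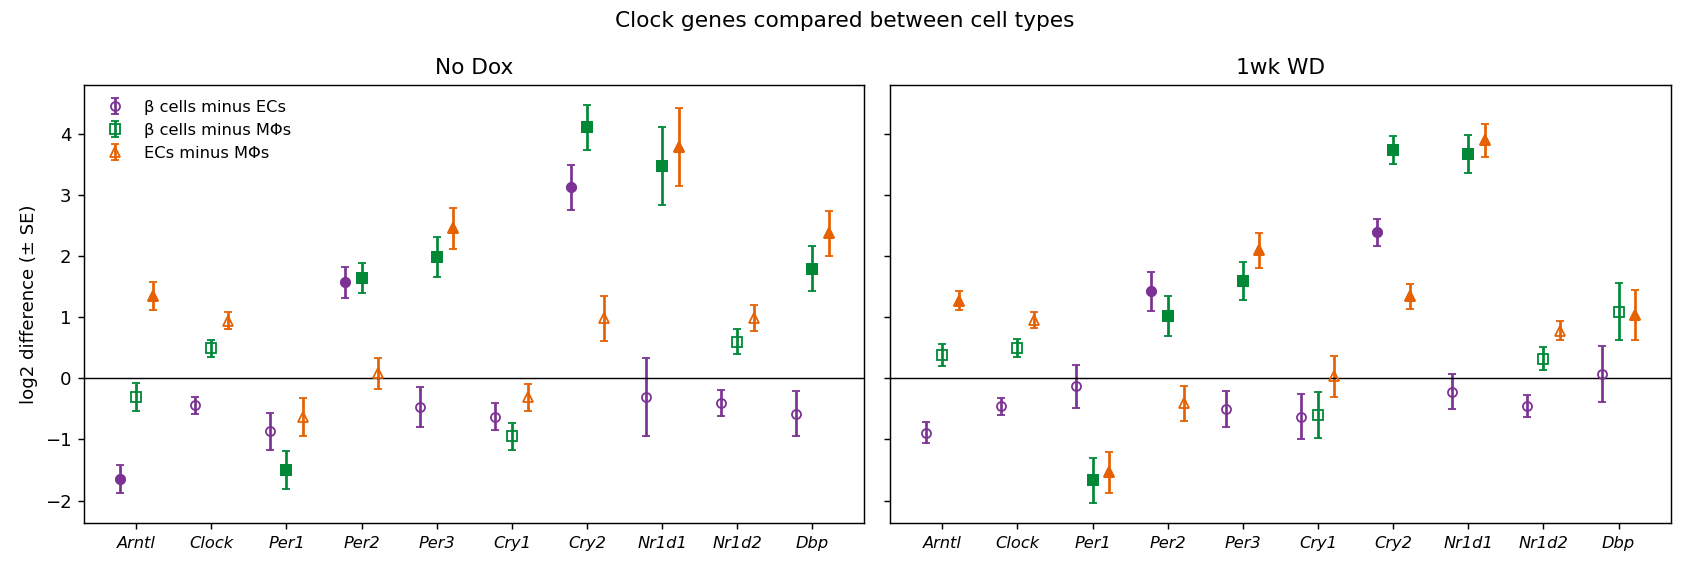
Log2 difference between cell types of each clock gene at No Dox (left) and 1wk WD (right), with bars of 1 SE, filled where the difference was called. The differences furthest from 0 at both time points were those from MΦs of Cry2 in β cells (log2 4.1 at No Dox and 3.73 at 1wk WD) and of Nr1d1 in β cells (3.47 and 3.67) and ECs (3.78 and 3.89).

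Genes around the core were described from fixed lists. Of 11 partners and output factors, 0 were called in ECs at 1wk WD, where 1.76% of all genes were, and the largest difference was in Nfil3, a repressor that competes with Dbp for D-boxes, at 0.75 (SE 0.16, limma adjusted p = 0.0227), under the fold change of 2. Their median in ECs was -0.19 over the 9 tested, beside 0 over all genes. Of 9 regulators of clock protein stability, 0 were called, with Fbxl21 the largest at 0.45. Of 6 outputs that cycle in many tissues, 0 were called, with Tspan4 the largest at -0.68. Among glucocorticoid targets, Fkbp5 differed by -0.87 (SE 0.2, limma adjusted p = 0.0306), and among immediate early genes Ier2 differed by -0.64 (SE 0.16, limma adjusted p = 0.0431), both under the fold change of 2. In MΦs at 1wk Dox, Zbtb16 was the gene of these lists that fell, 2.85-fold (log2 -1.51, SE 0.37, limma adjusted p = 0.0383), where 2.26% of all genes were called. The acinar and EC markers that moved with that comparison are given above with the MΦ scores, and their part in the Zbtb16 change was not tested. In the other 5 comparisons of time points, 0 genes of these lists were called, beside 0% to 0.626% of all genes. In β cells at 1wk WD, Npas2, a paralog of Clock, had the largest difference of the partners at 1.44 (SE 0.44, limma adjusted p = 0.561).

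Several of the 11 partners also differed between cell types. In No Dox β cells, 5 were called higher and 1 lower than in ECs, beside 37.7% of 16380 genes. Against MΦs, 7 were called higher and 1 lower in β cells, beside 43.2%. ECs had 4 called higher and 1 lower than MΦs, beside 33.5%. Only some of these partners are named here. At No Dox, Rora was 4.11-fold, Npas2 3.02-fold, and Bhlhe41 2.48-fold higher in β cells than in ECs. Bhlhe40, a repressor at E-boxes, was 3.24-fold lower. Hlf, a relative of Dbp, ran from 3113 to 3904 in ECs and from 9 to 117 in MΦs (log2 difference 6.54, SE 0.86, limma adjusted p = 6.25e-05), and Tef, another relative, was 2.72-fold higher in ECs.

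Libraries of a group were also compared by their Arntl score, to see whether other clock genes moved with it. The slope of every gene on Arntl was fitted within groups over 31 samples. With limma, 0 of the other 9 clock genes and 0 of 16950 genes (0%) were called, and 3738 of all genes but 0 clock genes had an unadjusted p under 0.05. The slopes ran from -0.73 (SE 0.5) for Nr1d1 to 0.66 (SE 0.33) for Per1. Within ECs alone the Nr1d1 slope was -0.91 (SE 0.36, limma adjusted p = 1) and 0% of 14166 genes were called. In β cells the slopes were 1.3 (SE 0.58, limma adjusted p = 0.223) for Per3, 1.1 (SE 0.35, limma adjusted p = 0.174) for Per1, and -1.1 (SE 0.47, limma adjusted p = 0.211) for Cry2, with 0% of 16345 genes called. All 8 stromal and all 6 acinar markers also had a positive slope on Arntl in β cells, with medians of 7.84 and 10.44 and an unadjusted limma p under 0.05 for each. The part of acinar cells in the clock gene slopes was not tested. With the stromal mean as a covariate the slopes were 0.48 for Per3, 0.58 for Per1, and -0.26 for Cry2. Without the 2 β cell samples of most deviant Arntl they were 0.57, 0.79, and -0.95, each with a limma adjusted p of 0.999. In MΦs the Nr1d1 slope was -3.02 (SE 1.63), with 0% of 15013 called. Among the 13405 genes tested in all 3 cell types, those outside the clock with the largest positive t were Bach2 (slope 1.21, SE 0.21), Mospd4 (2.89, SE 0.55), Sh2d4b (1.29, SE 0.25), Tas2r143 (3.92, SE 0.77), and Ext1 (1, SE 0.2), and those with the most negative were Hspd1 (-0.87, SE 0.17), Zfp882 (-1.43, SE 0.29), Ndufc1 (-1.43, SE 0.31), Tmem85 (-0.89, SE 0.2), and Wdr6 (-1.47, SE 0.33), with limma adjusted p from 0.0814 to 0.108.

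The spread between replicates differed between clock genes and cell types. The residual SD of Dbp was 0.57 on the log2 scale in ECs, larger than that of 82.7% of genes, while Clock had 0.12, larger than that of 7.5%. In β cells the SD of Arntl was 0.31 and that of Dbp 0.7, beside a median of 0.61 over all genes, and in MΦs Nr1d1 had 1.16, larger than that of 88% of genes.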

How the data were processed

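RNA of sorted islet cells was amplified, sequenced as 50 bp paired reads, and mapped to mm9 with TopHat 2.0, and transcript abundance was normalized by trimmed mean of M-values on a commercial platform, per the study's methods. The deposited scores are rounded normalized values made by the authors, not counts, so no count model was used. Of 38 value columns, 32 were matched to samples by library name, and 6 belonging to no sample used here were left out. Strand use in counting is not given in the sources used here.

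Genes whose mean score reached 20 in any group of the fit were tested on log2(score + 1) with limma 3.58.1 in R 4.3.3, with a trend of the spread, after a check on simulated data. All 3 time points entered the β cell fit and the MΦ fit, and the EC fit left out the single 1wk Dox sample. The gene rule was the 10 clock genes and the genes of the lists that were called or had the largest change in comparisons of time points. Some, not all, of the partners called between cell types were added, with the 5 most positive and 5 most negative t of the Arntl slope. Members and lists were chosen with earlier results of these data known. For the single EC sample the filter took the No Dox and 1wk Dox groups, as the design stated. A first run had included the 1wk WD group, and that setting is kept as an alternative. Figures used Python 3.11.15 and matplotlib 3.10.9. The study describes the samples as biological replicates, each from pooled islets.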

Additional observations from a re-analysis of the deposited data

Results flagged for a closer look

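In 60 sets of 4 or 5 libraries, 3 held a library far from the others, where chance gives about 1 in 20 sets. Arntl in MΦs at 1wk WD was 1855 in replicate 1, against 1494 in the next library. Clock in MΦs at 1wk WD was 3169 in replicate 3, against 3612 in the next. Cry2 in β cells at 1wk Dox was 12413 in replicate 5, against 6472 in the next.

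At 1wk Dox, the EC sample and both MΦ samples lay on opposite sides of their No Dox means for Per1 and Per2. The difference of the responses, ECs minus MΦs, was -0.48 for Per1 and -0.98 for Per2 on the log2 scale, and it was not tested because ECs had 1 sample.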

How the results depend on the processing

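Over 21 counts of clock genes, 406 of 415 alternatives stayed within 1.5 times the count and 9 did not. Counts of 0 in fits that called about 0% of all genes had little room to move. Direction was followed only for clock genes with an unadjusted limma p under 0.05 in the main fit, and none of these reversed. In ECs at 1wk WD the count of 1 became 0 with no filter on low scores (Dbp adjusted p = 0.123) and with no trend of the spread (0.0558), and ranged from 0 to 1 over samples left out in turn. Between β cells and ECs at No Dox the count of 3 became 6 without a fold change minimum and 5 without the β cell libraries of high stromal markers, a choice made after seeing the data, which also gave 2 in place of 0 for β cells at 1wk WD, with 1424 of all genes called. At 1wk WD the count between β cells and ECs of 2 became 1 with array weights and 5 without a fold change minimum. The β cell count for Arntl slopes ranged from 0 to 2 with samples left out, the 2 being Per1 and Cry2 without 1wk Dox replicate 4, where 4228 of all genes were called.

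Over the 20 alternatives the Dbp change in ECs ran from -1.92 to -1.46, with adjusted p from 0.00479 to 0.123. Replicate numbers did not pair the samples, with correlations of deviations from -0.47 to 0.37. With a replicate block, 1 clock gene was called in ECs at 1wk WD (Dbp log2 -1.92, adjusted p = 0.0159), and after withdrawal the counts were 4 in place of 5 between β cells and MΦs and 5 in place of 6 between ECs and MΦs.

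For the single EC sample, a filter over all 3 EC groups, the setting run first, gave 2 clock genes past a fold of 2 beside 11% of 14281 genes, with 61.6% outside the No Dox range. The scores carry no read depth, so counting error could not be given.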
